A study of Mus musculus and Homo sapiens with 67 samples.

Results

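In PSN1, an established human pancreatic cancer cell line, the libraries of cells given tazemetostat together with RMC-6236 (the combination) were compared with those of cells given tazemetostat alone. Both groups carried tazemetostat, an inhibitor of the histone methyltransferase EZH2, so the comparison isolates RMC-6236, an inhibitor of active RAS proteins, in cells in which EZH2 was already inhibited. The 6 libraries, 3 per group, are part of a series of 67 that covers human and mouse pancreatic cancer cells and tumours. PSN1 was profiled in 4 arms: a control given DMSO, each drug alone and both drugs. The genes described are those with at least 1 FPKM (mapped fragments scaled to transcript length and library size) in at least 3 of the 12 PSN1 libraries, which were 13358 of the 60564 genes in the table. The labels used here give no dose, treatment time or passage, and PSN1 is 1 established line. Nothing in the labels says that the 3 libraries of a group came from separate cultures, so p-values measure the spread between these libraries, which may be technical.

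RAS proteins switch on the RAF, MEK and ERK kinases, and ERK activity drives transcription of growth genes together with its own feedback inhibitors. Pancreatic ductal cancers usually depend on mutant RAS, and their ERK output sustains MYC, cyclin D and entry into S phase. EZH2 is the catalytic subunit of Polycomb repressive complex 2 (PRC2), which trimethylates lysine 27 of histone H3 and keeps developmental, immune and cell cycle inhibitor genes silent.

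The libraries within each group were alike, with a mean correlation of 0.994 to 0.996 over genes. The number of genes at 1 FPKM or more was 12050 to 12113 with tazemetostat and 12743 to 12772 with the combination. Mitochondrial transcripts took 23.5 to 23.9% of summed FPKM with tazemetostat and 26.1 to 26.9% with the combination; the part of this shift in the results below was not tested beyond the rescaling given in the closing section. Markers were counted as reaching 1 FPKM by their mean over all 12 PSN1 libraries. Of 8 ductal and epithelial markers 7 reached 1 FPKM, with a summed level of 555 to 578 FPKM against 653 to 659. Acinar and islet markers reached 1 FPKM in 0 of 9 cases, with AMY2A, CHGA, INS and SST listed at 0 throughout, and endothelial markers in 1 of 6 (KDR), with CLDN5 and ERG listed at 0. Macrophage and leukocyte markers reached it in 3 of 9 (CD14, CD68 and LYZ), summing to 38.6 to 41.7 against 41.0 to 44.4, with CD3E listed at 0. CD68 rose from 12.1, 12.6 and 13.3 FPKM to 25.5, 22.8 and 22.0, LYZ fell from 18.2, 19.4 and 19.7 to 10.6, 9.78 and 11.5, and CD14 was not called, so the sum holds opposite changes.

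RMC-6236 on top of tazemetostat changed most of the transcriptome, but few genes strongly. Of 13358 genes, 10676 passed an adjusted p threshold of 0.05 (79.9%): 5852 were higher with the combination (43.8%) and 4824 lower (36.1%). At a change of 2-fold or more, taken on the log2(FPKM + 1) scale used throughout, 812 genes were higher (6.08%) and 710 lower (5.32%), of which 128 and 76 reached 4-fold. In all 812 and all 710 the 3 and 3 libraries did not overlap, as in 81.5% of all genes tested. The median log2 change over all genes was 0.06. Because a small change sufficed for a call, gene groups are read below mainly against the 6.08% and 5.32% called at 2-fold or more. Counts of list members called at any size stand against the 43.8% and 36.1% of all genes.

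DUSP6, a phosphatase that dephosphorylates ERK and is itself induced by ERK, served as the readout of RAS activity. DUSP6 stood at 75.3, 78.3 and 75.6 FPKM in the tazemetostat libraries and at 6.45, 5.94 and 6.29 in the combination libraries. All combination libraries were far below all tazemetostat libraries, a log2 change of -3.42 ± 0.028 (SE, adjusted p = 1.3e-16, limma). EZH2, the target of the drug shared by both groups, read 14.4, 15.3 and 16.3 FPKM against 7.81, 7.34 and 7.75. Its transcript was lower in each combination library, by a log2 change of -0.92 ± 0.046 (adjusted p = 9.5e-10). Tazemetostat alone had left it near the control level, at 15.3 FPKM against 15.8, 16.0 and 15.4 in the control libraries.

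Genes of the RAS proteins and their regulators were called in shares near those of all genes. Among 30 measured, of 35 listed, 16 rose and 9 fell, against 43.8% and 36.1% of all genes, and 2 rose by 2-fold or more, against 6.08%. HRAS fell by 0.60 on the log2 scale, from 22.1 ± 0.330 to 14.3 ± 0.783 FPKM (SD, n = 3), and NRAS was higher by 0.16, from 28.4 ± 0.766 to 31.8 ± 1.14. The 2 at 2-fold or more were SOS1, a nucleotide exchange factor that loads RAS with GTP (9.17 to 29.0 FPKM, log2 change 1.56), and RRAS, a RAS relative (log2 change 1.36). GAB2, an adaptor that links receptors to RAS, followed at 0.98.

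Genes of the RAS-MAPK output fell broadly. All 31 listed genes were measured; 27 fell, 22 of them by 2-fold or more, and 4 rose, with a median log2 change of -1.59. FOSL1, which encodes the AP-1 partner FRA1, read 62.4, 62.9 and 65.3 FPKM against 4.93, 4.96 and 3.90. ETV4, an ETS factor induced by ERK, read 14.0, 15.2 and 14.7 against 1.22, 1.54 and 1.296. In both genes every combination library lay far under every tazemetostat library, with log2 changes of -3.53 and -2.73. MYC, which drives growth and proliferation genes, retained more of its level: 114, 117 and 116 FPKM became 50.7, 50.2 and 48.3 (log2 change -1.20). The Sprouty genes SPRY4, SPRY2 and SPRY1, which encode feedback inhibitors of receptor signalling, changed by -2.36, -1.97 and -1.95. The 4 genes that rose were FOS (0.74), EPHA4 (0.71), FOSL2 (0.50) and JUNB (0.36), among them 3 AP-1 subunits.

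**Figure D1:**
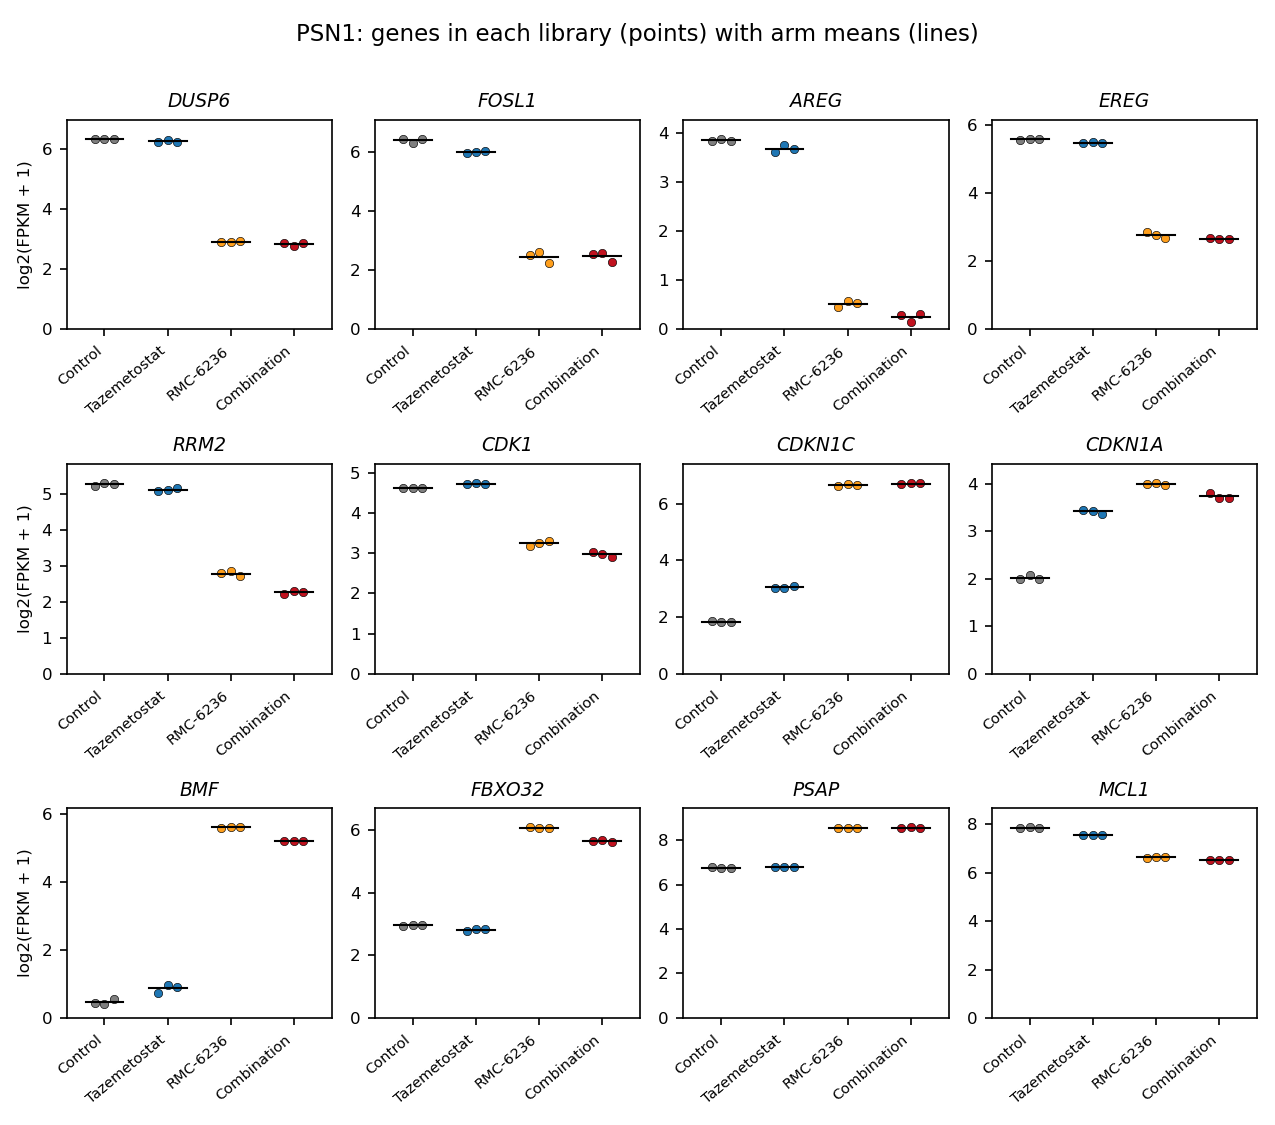
Level of 12 genes in each of the 12 PSN1 libraries, as log2(FPKM + 1); points are libraries, lines are arm means, and columns are the 4 arms with 3 libraries each. The combination and RMC-6236 libraries sit far under the other arms for DUSP6, FOSL1, AREG, EREG and RRM2 and far above them for CDKN1C, BMF, FBXO32 and PSAP; MCL1 is lower in both.

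AREG, EREG and HBEGF, 3 ligands of the epidermal growth factor receptor (EGFR), which cells secrete to stimulate themselves and their neighbours, fell by 2-fold or more. AREG (amphiregulin) read 11.3, 12.5 and 11.7 FPKM with tazemetostat and 0.222, 0.112 and 0.245 with the combination, near the bottom of the measured range. EREG (epiregulin) went from 43.7 ± 0.368 to 5.32 ± 0.0535 FPKM. HBEGF fell by 1.62 on the log2 scale. TGFA, another ligand of the receptor, changed by only -0.30, from 5.99 ± 0.0910 to 4.69 ± 0.0681 FPKM. Of 7 measured ligands of the EGFR and FGF families, out of 15 listed, 5 fell and 2 rose, against 36.1% and 43.8% of all genes. Their median of -0.30 was 0.03 without the filter on low values, and the number that rose was 1 to 4 in other settings. Among 18 receptor tyrosine kinases 9 rose and 7 fell, near the 43.8% and 36.1% of all genes. PDGFRA (-1.36), EGFR (-1.22, from 19.4 ± 0.344 to 7.76 ± 0.183 FPKM) and MET (-1.03) fell by 2-fold or more, and DDR1, a collagen receptor, rose from 1.90 to 10.1 FPKM (1.94).

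S phase genes fell almost without exception. All 35 DNA replication genes were lower, 33 of them by 2-fold or more against the 5.32% of all genes, with a median of -1.65. RRM2, a subunit of the reductase that supplies deoxynucleotides, read 33.4, 33.4 and 34.9 FPKM against 3.64, 3.94 and 3.82. MCM10, CDC6 and CDC45, which assemble and fire replication origins, changed by -2.41, -2.40 and -2.39. Of 17 genes of the G1 cyclin and RB-E2F group 15 fell, 9 by 2-fold or more, and RBL2, an RB relative found in resting cells, was the 1 that rose. E2F1, the transcription factor that turns on S phase genes, went from 25.4 ± 0.673 to 3.11 ± 0.416 FPKM, and CDC25A, a phosphatase that activates CDK2, from 13.3 ± 0.184 to 1.22 ± 0.0771. CCND1 (cyclin D1) changed by -1.44.

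Mitosis genes fell less than S phase genes. Of 35 measured, 34 were lower, 13 by 2-fold or more, with a median of -0.80. CDK1, the kinase that starts mitosis, read 25.8, 26.0 and 25.6 FPKM against 7.15, 6.98 and 6.52. AURKB went from 21.1 ± 0.621 to 5.70 ± 0.421. The single riser was CDC25B, a phosphatase that activates CDK1, at 0.52. For 34 of the 35 genes the interaction was lower, so the log2 change was below the one RMC-6236 gave without tazemetostat, with medians of -0.80 and -0.42. The background for a lower interaction was 13.8% of all genes, and the exception was CDC25B. Bulk libraries cannot tell fewer cycling cells from less RNA per cycling cell.

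Inhibitors of cyclin-dependent kinases split by member. Of 6 measured 5 rose and 1 fell, against 43.8% and 36.1% of all genes. CDKN1C (p57), an inhibitor of cell cycle entry that is imprinted and often silenced in tumours, stood at 7.07, 7.09 and 7.60 FPKM with tazemetostat and at 102, 104 and 105 with the combination. The libraries were far apart, a log2 change of 3.66 ± 0.029 (adjusted p = 1.1e-16). CDKN1A (p21) read 10.0, 9.79 and 9.37 against 13.1, 12.04 and 12.1, a small rise (log2 change 0.32). CDKN1B (p27) went from 10.5 ± 0.144 to 16.0 ± 0.313, and CDKN2D (p19) fell by 1.01.

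**Figure D2:**
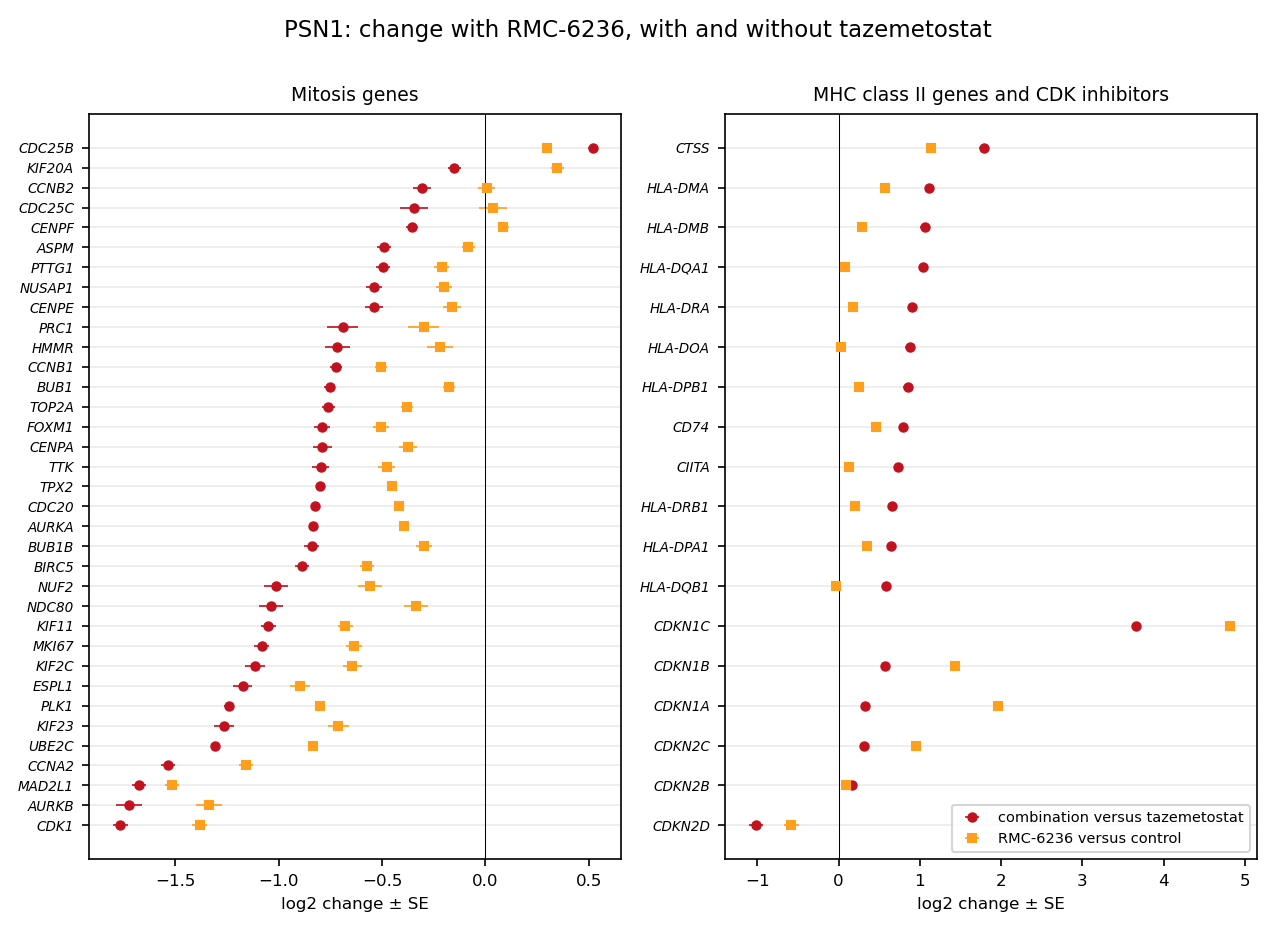
Log2 change with its standard error for 35 mitosis genes (left) and for the 12 genes of the MHC class II list, CTSS among them, and 6 CDK inhibitors (right). Red circles are the combination against tazemetostat and orange squares RMC-6236 against control. In the left panel the red circles lie below the orange squares for 34 of 35 genes, the exception being CDC25B. On the right the red circles lie above the orange squares for all 12 genes of the MHC class II list. They lie below them for 5 of the 6 CDK inhibitors, all but CDKN2B.

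Ribosome assembly genes fell as a group while the ribosomal proteins hardly moved. All 32 ribosome biogenesis genes were lower, 19 by 2-fold or more, with a median of -1.13. LYAR, a nucleolar factor, read 27.8, 28.9 and 29.9 FPKM against 6.78, 6.63 and 7.11, and RRP9 and BOP1, which process the ribosomal RNA precursor, changed by -1.63 and -1.62. For 15 of the 32 the fall was shallower than that with RMC-6236 alone by the interaction test, against 9.8% of all genes with a higher interaction, and for 0 deeper, against 13.8%. With the libraries rescaled by their median ratio the 15 became 24, against 13.6% of all genes. Of 30 cytosolic ribosomal protein genes 6 rose and 11 fell, 0 of them by 2-fold, with a median of -0.02; the number that fell was 18 with the libraries rescaled by their median ratio and 6 in the fit without a variance trend. In the MYC, MAX and MXD network, 6 of 13 genes rose and 5 fell, near the 43.8% and 36.1% of all genes. MXD4, which competes with MYC for MAX, went from 5.14 ± 0.410 to 22.6 ± 0.407 FPKM, and MLXIPL, a glucose-responsive relative, from 4.33 ± 0.118 to 35.3 ± 0.466.

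Genes of the mitochondrial death pathway moved at a few members by a lot. BMF, a BH3-only protein that blocks the BCL2 guardians, stood at 0.657, 0.942 and 0.896 FPKM with tazemetostat and at 35.6, 35.9 and 35.7 with the combination. All 3 combination libraries were far above, a log2 change of 4.33 ± 0.055 (adjusted p = 3.8e-15), the second largest rise among the genes named by size. BCL2L11 (BIM), another BH3-only gene, went from 3.29 ± 0.141 to 10.8 ± 0.272 FPKM. Among 7 measured BH3-only genes 5 rose and 1 fell (PMAIP1, -0.36), 2 rising by 2-fold or more. Over all genes 43.8% rose and 36.1% fell, and 6.08% rose by 2-fold or more. MCL1, a guardian that restrains them, read 187, 189 and 190 against 92.0, 92.0 and 92.1 FPKM, and BCL2L1 (BCL-XL) changed by -0.70. The effectors BAX and BAK1 did not pass the test (log2 changes -0.04 and -0.10).

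FOXO factors and their targets, which rise when growth factor signalling drops, gave the largest median of all 33 lists (1.15). Of 21 measured genes 20 rose, 13 by 2-fold or more, and 0 fell. FBXO32, a ubiquitin ligase adaptor known from muscle wasting, read 5.84, 6.16 and 6.10 FPKM against 49.6, 50.2 and 48.4. CCNG2, an unconventional cyclin of arrested cells, read 2.78, 2.67 and 2.58 against 21.4, 21.4 and 20.6. Both sets of libraries were far apart, with log2 changes of 2.84 and 2.59, and KLF2 followed at 2.52. GADD45A, a stress gene of the same list, was the 1 gene among the 812 that rose with the combination but fell with RMC-6236 alone. It read 19.8, 19.6 and 20.7 FPKM with tazemetostat, 45.3, 45.6 and 47.2 with the combination and 13.5, 14.1 and 13.3 with RMC-6236 alone, against 17.1, 15.7 and 16.7 in the control. In SW1990, a second pancreatic cancer line described below, it changed by -0.44 in the same comparison.

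Lysosome and autophagy genes also rose together. Of 32 measured 30 rose, 12 by 2-fold or more, and 1 fell (CTSL, -0.16), with a median of 0.69. GABARAPL1, which decorates autophagosome membranes, went from 2.46 ± 0.287 to 14.9 ± 0.575 FPKM. PSAP, the precursor of the saposins that activate lysosomal lipid enzymes, read 108, 109 and 110 FPKM against 376, 381 and 375. NEU1, a lysosomal sialidase, changed by 1.87, and ULK1, the kinase that starts autophagy, by 1.64. CTSD (cathepsin D) reached 489 ± 7.73 FPKM from 197 ± 0.678.

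MHC class II genes, which present peptides to CD4 T cells and are best known from professional antigen-presenting cells, rose in every measured case. The 12 listed genes include CTSS (cathepsin S), which is not a class II gene itself. All 12 were higher, 4 by 2-fold or more, with a median of 0.87. CTSS rose most, by 1.79, and is among the 4. HLA-DRA read 106, 113 and 108 FPKM with tazemetostat and 209, 203 and 202 with the combination. HLA-DMA, which helps load the peptide, went from 9.76 ± 0.053 to 22.3 ± 0.534, and CIITA, the master activator of the class, from 3.29 to 6.14 FPKM. Without tazemetostat the same drug moved them less: HLA-DRA was 52.5, 53.9 and 52.4 in control libraries and 60.3, 63.4 and 56.9 with RMC-6236, and the median was 0.23. The interaction was higher for all 12 genes, against a background of 9.8%. Beside these genes the leukocyte marker CD68 rose (0.84), LYZ fell (-0.79) and CD14 was not called (0.00), and PTPRC (CD45), which marks nearly all leukocytes, was listed at 0 in all 6 libraries. The part of such cells was not tested. HLA genes are polymorphic and share sequence with one another, so reads may have been split between them.

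MHC class I and interferon genes rose by smaller steps. Of 20 class I presentation genes 16 rose and 2 fell, with 4 rising by 2-fold or more: PSMB10, an immunoproteasome subunit (9.10 ± 0.207 to 25.6 ± 1.27 FPKM), TAPBP, HLA-E and HLA-F. Of 42 interferon-stimulated genes 40 rose and 1 fell (USP18, -0.20), but only 5 reached 2-fold, with a median of 0.64. Those led by GBP2, a guanylate-binding protein (3.39 ± 0.133 to 21.6 ± 1.01 FPKM), GBP1 (1.90) and STAT2, a transducer of the interferon signal (6.65 ± 0.285 to 24.4 ± 0.925), also included IFI35 and IFITM1. In most single-library omissions, without the filter on low values, without a variance trend and in the fit of the compared arms alone, 0 genes of the list were called lower.

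Secreted immune signals divided. Of 26 measured chemokines and cytokines 11 rose and 13 fell, against 43.8% and 36.1% of all genes. At 2-fold or more 4 rose and 6 fell, against 6.08% and 5.32%. IL11 and CSF2 (GM-CSF) fell from 8.19 ± 0.299 to 0.398 ± 0.149 and from 18.8 ± 1.89 to 2.14 ± 0.820 FPKM, and IL1B changed by -1.37. CXCL6, which attracts neutrophils, rose from 13.6 ± 0.840 to 43.4 ± 1.21 FPKM and IL32 from 7.75 ± 0.297 to 21.1 ± 0.392. Among 14 checkpoint ligands and related surface genes 5 rose and 8 fell, against the same 43.8% and 36.1%. NT5E (CD73), which makes adenosine, went from 19.4 ± 0.419 to 2.34 ± 0.279 FPKM and PVR, a ligand of TIGIT, changed by -1.55.

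Metabolic groups differed in direction and size. Over all genes 43.8% rose and 36.1% fell, 6.08% and 5.32% by 2-fold or more. Glycolysis and hypoxia genes fell in 20 of 27 cases and rose in 3, with 2 falls of 2-fold or more, ANGPTL4 (-2.03) and VEGFA (-1.21), and a rise in ADM, the vasodilator peptide adrenomedullin (5.35 to 37.1 FPKM). Of 28 cholesterol and fatty acid genes 8 rose and 14 fell; SREBF1, the master regulator of lipid synthesis, LSS and INSIG1 rose by 2-fold or more (1.28, 1.07 and 1.05) and FASN changed by -0.82. In 18 of the 28 the interaction was higher, against 9.8% of all genes. Amino acid transport and ATF4 targets fell in 17 of 24 cases, 6 by 2-fold or more, led by MTHFD2 (-1.56), PSAT1 (-1.47) and PYCR1 (-1.42), enzymes of the folate, serine and proline pathways. Nuclear genes of oxidative phosphorylation rose in 25 of 30 cases with a median of 0.17 and 0 at 2-fold, and mitochondrially encoded ones in 9 of 13 (0.20).

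Epithelial genes rose more often than they fell, as did all genes tested, while mesenchymal genes went both ways. Over all genes 43.8% rose and 36.1% fell, 6.08% and 5.32% by 2-fold or more. Of 18 epithelial identity genes 10 rose, 4 by 2-fold or more, and 5 fell. ELF3, an epithelial transcription factor, read 4.10, 4.11 and 3.83 FPKM against 20.9, 21.2 and 21.1. CDH1 (E-cadherin) went from 2.23 ± 0.156 to 7.53 ± 0.332 FPKM, KRT19, a ductal keratin, from 125 ± 2.82 to 258 ± 2.07, and TJP3 changed by 2.09. The 5 that fell were CLDN1 (claudin-1), a tight junction protein (22.0 ± 0.708 to 11.7 ± 0.264 FPKM), the splicing factor ESRP2 (-0.83), the keratins KRT18 (-0.60) and KRT7 (-0.26) and the surface protein EPCAM (-0.20). Of 21 mesenchymal genes 10 rose and 11 fell, 3 and 4 of them by 2-fold or more. CD44, a hyaluronan receptor, read 174, 179 and 177 against 55.6, 55.6 and 55.8 FPKM. MMP2, a collagenase, rose from 0.913 ± 0.0556 to 11.9 ± 0.642 FPKM and SNAI2, a repressor of E-cadherin, changed by 1.41.

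Fibroblast markers that reached 1 FPKM rose, apart from PDGFRA. Of 9 such markers 6 reached 1 FPKM (COL1A1, COL3A1, DCN, LUM, PDGFRA and PDGFRB), and their summed level over the list was 43.6 to 45.2 FPKM with tazemetostat and 119 to 122 with the combination. The sum was carried by LUM (lumican), at 24.6, 24.8 and 26.3 against 77.2, 77.7 and 75.3, and by COL3A1, at 1.58, 1.34 and 1.60 against 23.9, 24.2 and 23.6. DCN (decorin) rose from 0.595, 0.523 and 0.567 to 6.11, 5.98 and 6.40 (2.20), PDGFRB by 0.58 and COL1A1 by 0.28. PDGFRA fell from 7.78, 8.41 and 7.88 to 2.48, 2.53 and 2.51 (-1.36). COL1A2, the partner chain of type I collagen, and the fibroblast surface protein FAP stayed under 1 FPKM, with COL1A2 listed at 0 in the tazemetostat libraries. The part of such markers in the mesenchymal values was not tested.

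Subtype genes of pancreatic cancer gave no single direction. Of 20 classical subtype and gastric genes 7 rose and 10 fell, against 43.8% and 36.1% of all genes. ANXA10, a gastric-type annexin, read 87.6, 89.9 and 92.9 FPKM against 7.49, 8.48 and 6.43, whereas MUC1, a transmembrane mucin, rose from 1.84 ± 0.108 to 16.7 ± 0.109. Of 13 basal-like and squamous genes 8 rose and 4 fell, against the same shares of all genes. PI3, a protease inhibitor, changed by -1.33, and S100A8 and SERPINB4 by 1.18 and 1.14. SERPINB4 is nearly identical to SERPINB3, so its value is uncertain. YAP/TEAD targets fell in 13 of 21 cases and rose in 7, with 6 falls of 2-fold or more that included NT5E, F3 (tissue factor, -2.40), ANKRD1 (-2.14) and FJX1 (-1.96).

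PRC2 genes fell in 8 of 12 cases and rose in 2, 0 by 2-fold. Over all genes 43.8% rose and 36.1% fell, 6.08% and 5.32% by 2-fold or more. EPOP, a PRC2 accessory subunit, changed by -0.97, EZH2 by -0.92 as given above, and EZH1, the relative of EZH2 found in resting cells, rose by 0.66. Of 22 measured developmental Polycomb targets, of 48 listed, 4 rose and 12 fell. HOXB2 alone passed 2-fold, going from 28.8 to 8.29 FPKM, so falls of that size were about as frequent as over all genes. Of 8 DNA methylation enzymes 5 fell and 2 rose. UHRF1, which recruits the maintenance methyltransferase to replicating DNA, went from 24.5 to 4.09 FPKM and DNMT1 from 32.1 to 14.3.

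**Figure D3:**
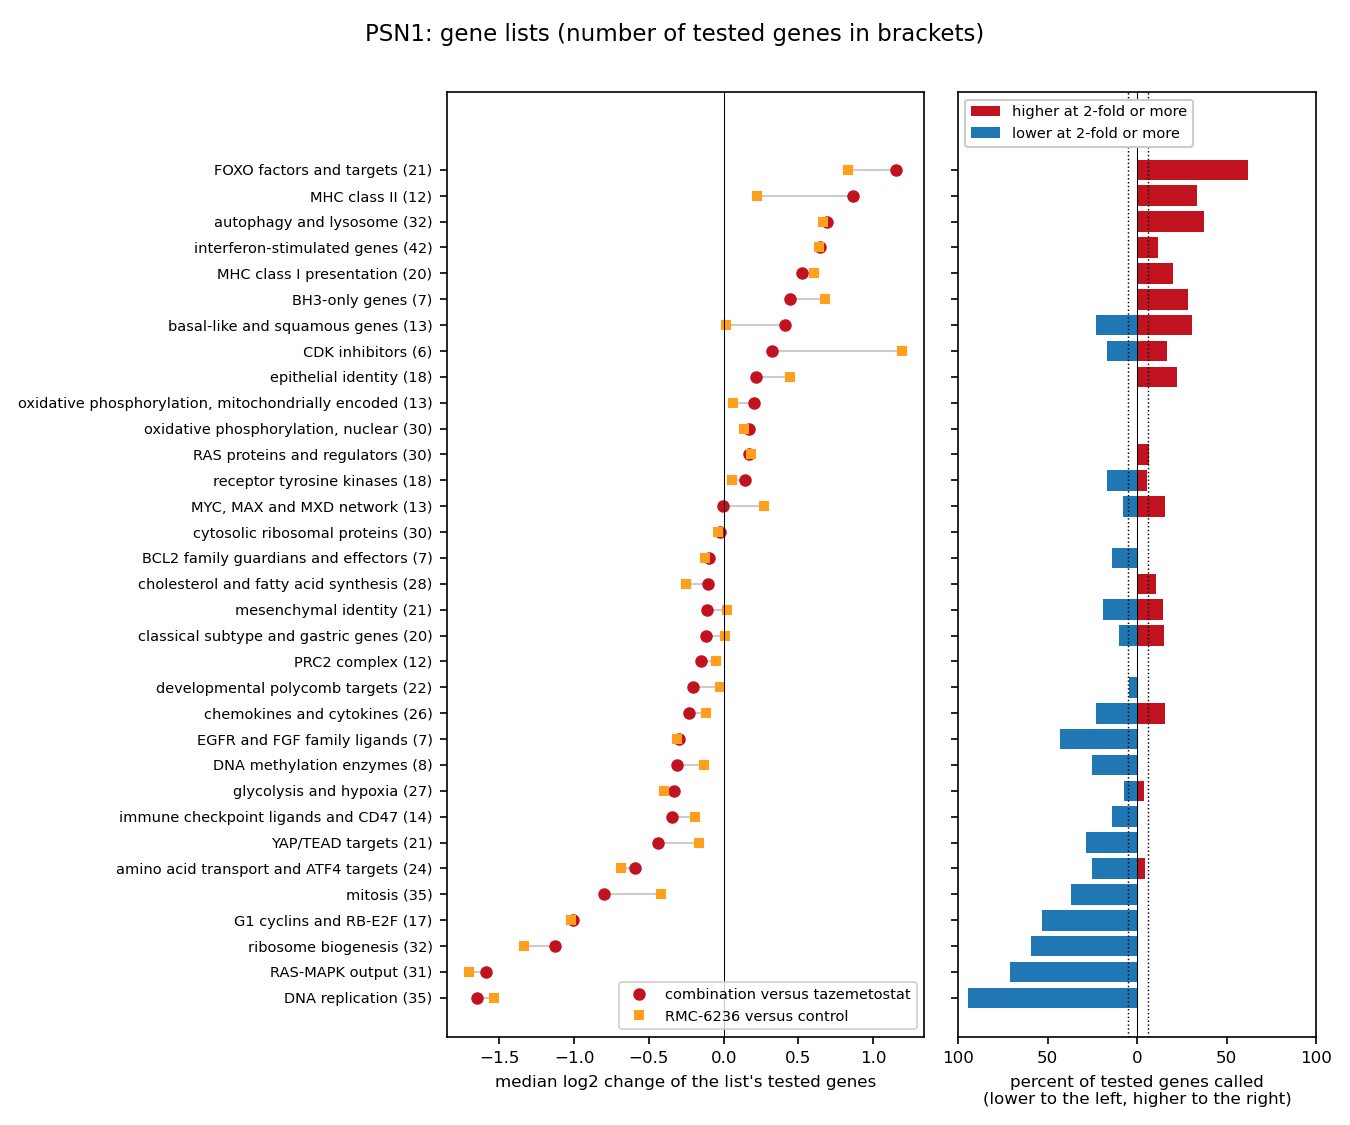
Left, median log2 change of each of the 33 gene lists for the combination against tazemetostat (red circles) and RMC-6236 against control (orange squares), with the number of tested genes in brackets. Right, percent of each list called higher (red) or lower (blue) at 2-fold or more, with dotted lines at the 6.08% and 5.32% of all genes; DNA replication reaches farthest to the left and FOXO factors and targets farthest to the right.

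The 15 steepest risers by size were led by ALDH1A1, which oxidises aldehydes and makes retinoic acid. It stood at 0.370, 0.460 and 0.251 FPKM with tazemetostat against 53.7, 54.9 and 53.0 with the combination (log2 change 5.34 ± 0.066, adjusted p = 3.0e-15). GSTA1, a glutathione transferase, reached 26.2 ± 1.77 FPKM from 0.376 ± 0.0549, and AKR1C1, an aldo-keto reductase with close paralogs, 35.0 ± 0.585 from 2.10 ± 0.168. The 3 fibrinogen chains rose together: FGA from 8.06 ± 0.391 to 160.1 ± 2.39 FPKM, FGB from 25.3 ± 1.06 to 303 ± 2.03 and FGG from 8.74 ± 0.114 to 123 ± 1.09. Beside BMF and CDKN1C, the list held FDCSP (4.28), PTGDS (3.95), MMP13 (3.89), RASL11A (3.75), SPON2 (3.69) and NFE2 (3.47).

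The 15 steepest falls began with MMP1, an interstitial collagenase. It read 228, 236 and 244 FPKM with tazemetostat and 14.4, 14.3 and 13.4 with the combination, the deepest fall (log2 change -3.98 ± 0.069, adjusted p = 1.8e-13). Tazemetostat alone had put it above the control, where it read 20.6, 20.9 and 20.2. IL33, an alarmin cytokine, went from 21.0 ± 0.846 to 0.737 ± 0.0622 FPKM and HAS2, which makes hyaluronan, from 44.0 ± 1.43 to 2.89 ± 0.124. NTSR1, the neurotensin receptor, changed by -3.28, as did CASC19, a noncoding RNA. The T cell receptor segments TRBC2 (148 ± 0.581 to 12.1 ± 0.938 FPKM) and TRBJ2-1 lie at the same locus, and their reads may not be separable. TOMM6, a mitochondrial import subunit, had the largest error (-3.87 ± 0.706, adjusted p = 0.00082), with 30.6, 36.1 and 39.3 FPKM against 0.584, 3.03 and 1.39. Its control libraries ranged from 2.91 to 30.0 FPKM.

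Among abundant genes that changed by 2-fold or more, FTH1, the iron-storing ferritin heavy chain, rose from 1153 ± 24.1 to 2745 ± 29.1 FPKM and MT-RNR2, the mitochondrial large ribosomal RNA, to 2883 ± 12.8 from 1199.5 ± 0.101. CFB (complement factor B) read 45.9, 45.6 and 48.3 against 401, 391 and 398 FPKM, a log2 change of 3.06. On the other side MT2A, a metallothionein, fell from 1293 ± 47.2 to 320.0 ± 3.59 FPKM. The chaperones HSPA8 and HSP90AA1 changed by -1.40 and -1.14 and the tubulins TUBA1B and TUBB4B by -1.44 and -1.02. Pseudogenes, nuclear copies and close paralogs of FTH1, MT-RNR2, HSPA8 and the tubulins can share reads with them.

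The same drug contrast without tazemetostat, RMC-6236 against control, uses 6 other libraries of the line and called 10742 genes (80.4%), 6115 higher (45.8%) and 4627 lower (34.6%). Of the 812 genes up by 2-fold or more on top of tazemetostat, 766 were also called higher there, 1 was lower (GADD45A) and 45 were not called. Of the 710 that fell, 701 were lower, 1 was higher (AQP3) and 8 were not called. Across the 13358 genes, which are not independent replicates, the 2 sets of log2 changes had a Spearman correlation of 0.93. DUSP6 changed by -3.42 with tazemetostat and -3.43 without it, an interaction of 0.00 (adjusted p = 0.95).

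The difference between the 2 contrasts, the interaction, was called for 3157 genes (23.6%), 1309 higher (9.8%) and 1848 lower (13.8%). The split turned with the scaling: with the libraries rescaled by their median ratio 1820 were higher (13.6%) and 1476 lower. At 2-fold or more it was called higher for 89 (0.666%) and lower for 43 (0.322%). The interaction is taken from log2(FPKM + 1), and a gene near 0 in 2 arms enters with little room to change there. FDCSP, a secreted peptide of follicular dendritic cells, was listed at 0 in the control and stood at 0.260, 0.343 and 0.240 FPKM with RMC-6236, at 0.469, 0.701 and 0.737 with tazemetostat and at 29.6, 31.0 and 31.4 with both. ALDH1A1 read 4.10, 3.71 and 4.57 with RMC-6236 alone, well under its level with both drugs. CD24, a surface glycoprotein, read 0.195, 0.0998 and 0.143 in the control, 0.922, 1.04 and 1.22 with RMC-6236, 4.03, 3.96 and 4.22 with tazemetostat and 44.5, 42.9 and 42.4 with both. In all 3 genes the combination libraries stood above every other library of the line.

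**Figure D4:**
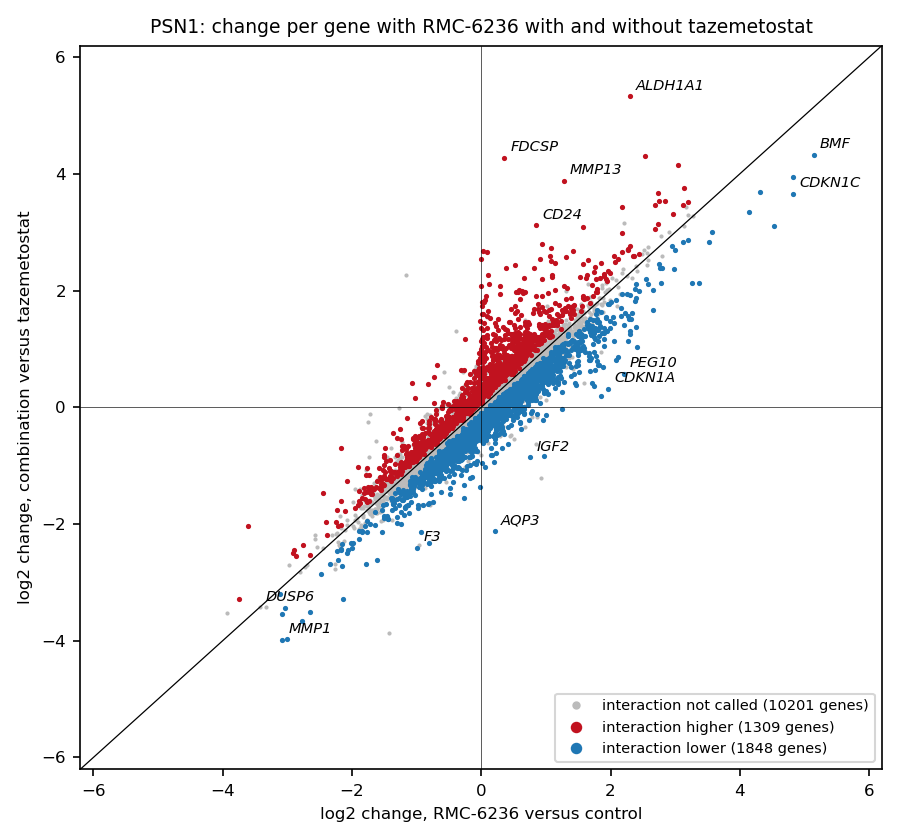
Each point is 1 of 13358 genes; the x axis is its log2 change with RMC-6236 against control and the y axis that of the combination against tazemetostat, with the line of equal change. Red and blue points are the 1309 and 1848 genes with a called interaction; FDCSP, ALDH1A1 and MMP13 stand above the line, AQP3, IGF2, PEG10 and CDKN1A below it, and DUSP6 on it.

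At the lower end, the log2 change was lower with tazemetostat than without it. AQP3, a water and glycerol channel, read 16.5, 17.2 and 15.4 FPKM in the control and 18.6, 19.6 and 19.0 with RMC-6236, but 41.9, 42.4 and 41.1 with tazemetostat and 8.10, 9.13 and 9.46 with both. IGF2, an imprinted growth factor, rose with RMC-6236 alone (52.8 to 90.0 FPKM) and fell with the combination (41.5 ± 0.622 to 22.4 ± 0.883). PEG10, another imprinted gene, went from 8.22 to 41.5 FPKM without tazemetostat and only from 8.71 to 13.5 with it. CDKN1A had already risen with tazemetostat alone, from 3.07 to 9.72 FPKM, and RMC-6236 then added a log2 change of 0.32 in place of 1.97. F3 changed by -2.40 with tazemetostat and -0.99 without.

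**Figure D5:**
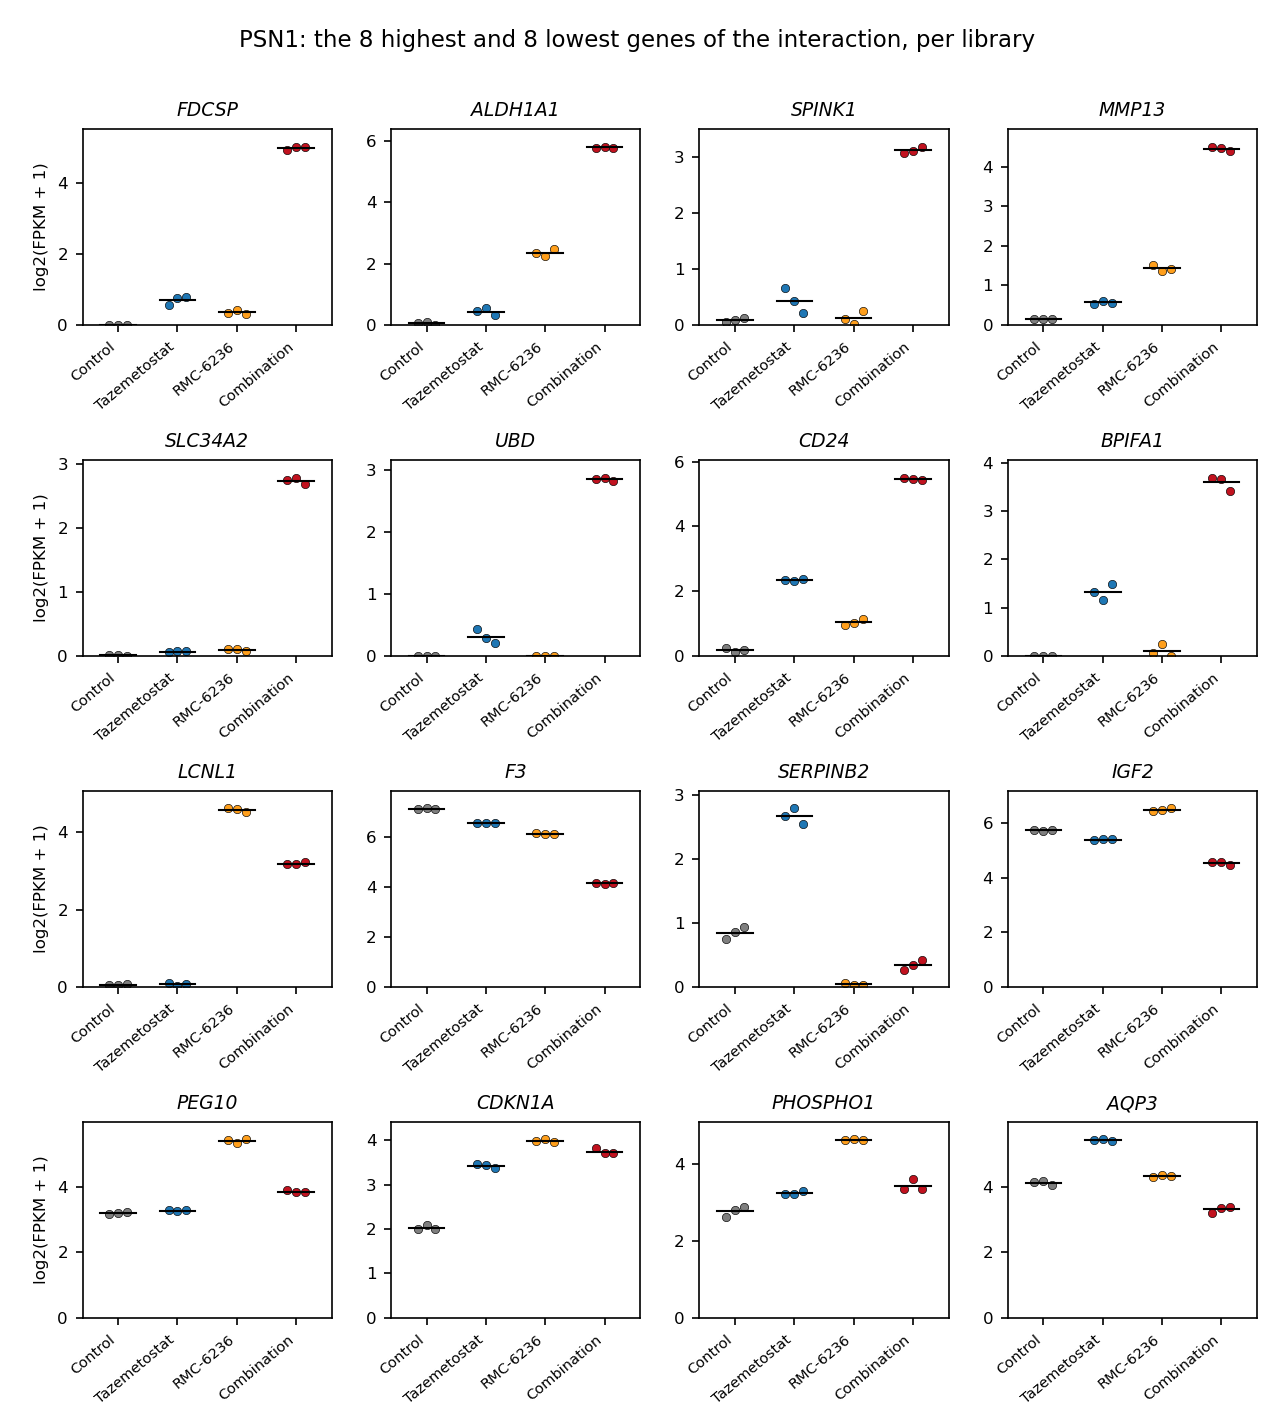
Level, as log2(FPKM + 1), of the 8 genes with the highest and the 8 with the lowest interaction in each of the 12 PSN1 libraries; points are libraries and lines arm means. The upper 8 genes are highest in the combination, and of the lower 8 AQP3, F3 and IGF2 are lowest there.

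The same comparison in SW1990, a human line in a table of its own with 3 libraries in each group, called 9798 of 12913 genes (75.9%), 4338 higher (33.6%) and 5460 lower (42.3%); with the libraries rescaled it called 5089 higher and 4950 lower. Of the 812 genes up by 2-fold or more in PSN1, 605 were tested in SW1990, of which 524 were higher and 37 lower. Of the 710 down, 607 were tested, 561 lower and 12 higher. Over the 11547 genes tested in both, the log2 changes had a Spearman correlation of 0.73. BMF (3.73), FBXO32 (3.44) and MMP13 (3.56) rose there and DUSP6 (-4.51), FOSL1 (-4.53) and AREG (-3.46) fell. Other genes named above did not repeat. MCL1 (-0.07), ADM (0.12) and RASL11A (-0.21) were not called in SW1990, and MET (0.24) and CLDN1 (0.72), lower in PSN1, were higher. All 6 measured genes of the MHC class II list, CTSS among them, rose, with a median of 1.07. All 42 interferon genes rose too, with a median of 1.54. Mitosis genes fell in 18 of 35 cases and rose in 7, with a median of -0.19. Nuclear genes of oxidative phosphorylation, higher in 25 of 30 cases in PSN1, fell in 21 of 30 and rose in 2, with a median of -0.19. AQP3 gave a log2 change of 2.28, against -2.11 in PSN1. The difference between the lines was not tested.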

How the data were processed

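RNA of PSN1 and SW1990 cells was profiled with a stranded mRNA library kit, per the labels' protocols. The submitters' processing notes name FastQC 0.11.2, STAR 2.5.3a, StringTie 1.3.1c and the hg38 build. Each line has a table of FPKM that the authors deposited, and these values were not changed before use. FPKM hold no counts, so depth is unknown and precision is read from the spread between libraries.

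Values were taken as log2(FPKM + 1). Genes were tested at 1 FPKM or more in at least 3 of 12 libraries. limma 3.58.1 in R 4.3.3 (trend and robust, statmod 1.5.0) fitted 4 arm means per line with 8 residual degrees of freedom. Tests are two-sided, and p-values were Benjamini-Hochberg adjusted over all genes tested, with a threshold of 0.05. The interaction is the change on top of tazemetostat minus that without it. Tables were read with the data.table package (version 1.17.8), figures drawn with matplotlib 3.10.9 in Python 3.11.15, and the fit was tested on simulated data. Samples were grouped by their titles, and 0 value columns of the PSN1 and SW1990 tables were unmapped.

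Genes are named by rule: EZH2, RAS genes and DUSP6; the 15 largest changes in each direction with a group mean of at least 5 FPKM and no overlap; up to 5 called members per list; the 8 highest and 8 lowest interactions; and the 5 most abundant genes called at 2-fold or more in each direction. SPRY1, SPRY2, SPRY4, FOS, FOSL2, JUNB, EPHA4, CCND1, RBL2, CDC25B, GADD45A, CTSL, CIITA, TAPBP, USP18, ESRP2, BAX and BAK1 and the marker genes fall outside it and were chosen after their values were seen. A few genes that the rule selects are not reported here. The comparison, the 33 gene lists and the 5 marker lists were chosen with earlier results of these data known. Alternatives were a pseudocount of 0.1, no filter, a filter over the 6 compared libraries, rescaled libraries, a replicate block, a fit without trend, only the compared arms, and leaving out each library. Human promoter sequences were not used here, so a planned motif search was not run.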

Additional observations from a re-analysis of the deposited data

Results flagged for a closer look

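A difference between the change on top of tazemetostat and the change without it was called for 3157 genes, by limma's interaction test over all 4 arms. Among the genes named from it, those with a larger rise on the log2(FPKM + 1) scale in the presence of tazemetostat were FDCSP (interaction 3.92), ALDH1A1 (3.04), SPINK1 (2.65), MMP13 (2.61), SLC34A2 (2.58), UBD (2.54), CD24 (2.28) and BPIFA1 (2.17). That scale shrinks changes of genes near 0 FPKM. ALDH1A1 went from a mean of 0.0416 to 4.13 FPKM without tazemetostat and from 0.360 to 53.9 with it. CD24 went from 0.146 to 1.06 without it and from 4.07 to 43.2 with it. SPINK1, a trypsin inhibitor of the pancreas, stood at 7.33, 7.58 and 8.06 FPKM with both drugs and under 1 FPKM in every other library. UBD, a ubiquitin-like modifier induced by inflammatory cytokines, was listed at 0 in the control and RMC-6236 libraries and read 6.25, 6.34 and 6.09 with both drugs. SLC34A2, a phosphate transporter, read 5.69, 5.89 and 5.43 with both drugs, and BPIFA1, a secreted airway protein, 11.98, 11.7 and 9.78.

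Those on the lower side were AQP3 (-2.33), PHOSPHO1 (-1.67), CDKN1A (-1.64), PEG10 (-1.63), IGF2 (-1.62), SERPINB2 (-1.52), F3 (-1.41) and LCNL1 (-1.41). LCNL1 rose in both settings, to 23.5, 23.3 and 22.2 FPKM with RMC-6236 alone and to 8.03, 8.05 and 8.32 with both drugs. PHOSPHO1 read 23.7, 24.0 and 23.9 with RMC-6236 alone and 9.28, 11.2 and 9.30 with both. SERPINB2 fell from 5.38 FPKM with tazemetostat to 0.269 with both drugs.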

How the results depend on the processing

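Counts over all genes stayed within 1.5 times the reported ones, with these exceptions: a pseudocount of 0.1 raised the genes higher at 2-fold or more from 812 to 1503, and dropping the filter raised the SW1990 genes called higher from 4338 to 6769. Every gene named by rule kept its direction in combination against tazemetostat, and its call in all settings but for PHOSPHO1, whose change of 0.19 was no longer called without the filter, with rescaled libraries or without tazemetostat replicate 1 or 2 or combination replicate 2. The 16 named interactions kept their calls in every setting run. Their sizes under other settings, such as the smaller pseudocount, are not given here. Rescaling moved the median of all genes from 0.06 to 0.02 and the share of calls that were higher from 54.8% to 51.5%, and dropping the filter moved that share to 61.2%. With rescaled libraries 29 of the 33 list medians moved by more than the combined SD of the list mean within the 2 groups. A pseudocount of 0.1 moved 24, dropping the filter 16 and the filter over the 6 compared libraries 5. Medians near 0 changed sign without the filter for the EGFR and FGF ligands (0.03) and the mesenchymal genes (0.01). The median of the MYC network did so with 1 of 3 single libraries left out (0.02 to 0.05). Without the filter more genes of a list entered the test, and called members rose to 13 higher and 7 lower in the basal-like list, 12 higher in the classical list and 9 higher in the developmental list. With the replicate number as a replicate block, 10662 genes were called, and 3025 for the interaction. Same-numbered combination and tazemetostat libraries correlated at 0.06, 0.03 and 0.05. The highest values over all pairs of arms were 0.16 (control with combination) and 0.13 (control with tazemetostat), both for replicate 1. The numbers were not taken to pair the samples, although each combination library correlated best with the tazemetostat library of its own number. Genes named outside the rule were not refitted one by one. FPKM carry no counts, so no limit from depth can be given.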
